A study of Mus musculus with 2 samples.

Results

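Messenger RNAs that carry AU-rich elements are short-lived, and a small set of RNA-binding proteins sets how long they last. The 8 genes described here were taken by name from the deposited table of 52636 genes: the tristetraprolin family (Zfp36, Zfp36l1 and Zfp36l2), the stabilising protein HuR (Elavl1), the decay-promoting proteins KSRP (Khsrp) and AUF1 (Hnrnpd), and the Regnase endoribonucleases (Zc3h12a and Zc3h12c). All 8 had a row, and all 8 were among the 12468 genes called measured here, whose mean over both libraries reached 1 CPM (counts scaled to library size). The rule used gene names and no measured value, but the members were chosen with earlier results of these data known. The cells were Hepa1-6, a mouse hepatocellular carcinoma line. The vector line carried the control lentivirus with GFP and puromycin resistance, and the IRF8 line carried the lentivirus with the same markers and IRF8, a transcription factor best known from myeloid and B cells. Both had been exposed to virus for 24 h and selected with puromycin at 2 µg/ml, and both remained tumour cells cultured without immune cells. Each line gave 1 library, so no difference has a replicate check, no p-value is given, and all intervals cover counting error between these libraries only.

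As background, tristetraprolin and its relatives bind the heptamer UAUUUAU through a pair of CCCH zinc fingers and recruit the CCR4-NOT deadenylase, which removes the poly(A) tail. KSRP and AUF1 also bind AU-rich sequence and direct decay, whereas HuR binds the same kind of sequence and protects the message. The Regnases cut stem-loops in the 3′ ends of inflammatory mRNAs. Zfp36 is itself an immediate-early gene, switched on quickly by serum, growth factors and stress, and its protein acts on its own mRNA. Cytokine, chemokine and growth factor messages are among the known targets.

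The libraries held 18118017 counted reads (vector) and 20042660 (IRF8). Irf8 itself had 1010 and 1486 counts, a ratio of 1.22 (95% counting interval 1.13 to 1.32), which is higher in the line labelled as overexpressing but under 2-fold. Whether the counting captures transcripts of the transgene was not tested. Of 10 hepatocyte markers 7 were measured, among them Alb and Afp, while Ttr, Apoa1 and Serpina1a had at most 15 counts in either library. At these low counts Apoa1 (3 with the vector and 15 with IRF8) and Serpina1a (1 and 6) stood higher with IRF8. Ttr (2 and 0) did not. The summed level of these markers was 5276 CPM with the vector and 3525 CPM with IRF8, most of it from the keratin genes Krt8 (ratio 0.682) and Krt18 (0.721). All 7 measured hepatocyte markers had ratios below 1, with a median log2 ratio of -0.88, and 3 were called lower by the 2-fold rule given below: Alb (0.376), Afp (0.468) and Trf (0.455). Of all 12468 measured genes, 6124 had ratios below 1 and 3.64% were called lower. The part of the hepatocyte markers in the results below was not tested. Summed myeloid markers stood at 24.6 and 20.04 CPM, and summed lymphoid markers at 0.346 and 0.526 CPM. Of 9 myeloid markers 3 were measured and none of them called: Cd68 (194 and 160 counts), Csf1r (161 and 186) and Lyz2 (41 and 57). Spi1 (17 and 2 counts) and Ptprc (7 and 5) did not reach the measured level, and Adgre1 and Tyrobp were at 0 in both libraries. Summed endothelial and stromal markers stood at 7.20 and 7.32 CPM, but of the 3 measured Col1a1 was called higher (21 and 67 counts, ratio 2.65) and Vwf lower (50 and 23 counts, ratio 0.382). In bulk RNA, fewer cells with a transcript and less of it per cell cannot be told apart.

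The sequences most relevant to these proteins are the AU-rich stretches they bind. One transcript per gene was taken from GENCODE M21, the longest with an annotated stop codon, and all 8 members had a 3′ untranslated region there. Of these, 5 held at least 1 heptamer: Elavl1 had 8, Zfp36, Zfp36l1 and Zfp36l2 had 3 each, and Zc3h12c had 2. Khsrp, Hnrnpd and Zc3h12a had 0. Among all 11034 measured genes with such a region, 30.2% held at least 1. The windows below are the 30 bases with most heptamers in each of 4 members and, for comparison, in the cytokine mRNAs Csf2 and Cxcl2, classic targets of tristetraprolin. They are written 5′ to 3′ in the sense of the mRNA with T for U, with each heptamer in capitals, on mm10. Where several windows of a gene hold equally many heptamers, the one nearest the stop codon is given.
Zfp36 (chr7:28376958-28376987, minus strand): ccttTATTTATgacgacttTATTTATtgta
Zfp36l1 (chr12:80108422-80108451, minus strand): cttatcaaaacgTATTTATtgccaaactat
Zfp36l2 (chr17:84184914-84184943, minus strand): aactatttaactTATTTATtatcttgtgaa
Elavl1 (chr8:4285777-4285806, minus strand): tTATTTATTTATTTATTTATtttTATTTAT
Csf2 (chr11:54247325-54247354, minus strand): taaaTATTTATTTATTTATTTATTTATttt
Cxcl2 (chr5:90905325-90905354, plus strand): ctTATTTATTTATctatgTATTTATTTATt
The Elavl1 and Csf2 windows each hold 5 heptamers that partly overlap, the Cxcl2 window 4, the Zfp36 window 2 and the Zfp36l1 and Zfp36l2 windows 1. A match describes the letters and does not show that a protein binds there.

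The promoter sequence is shown for Zfp36, the member that differed most between the libraries, beside that of its relative Zfp36l1. RefSeq windows on GRCm38.p6, from 250 bases before to 50 after the annotated start, were found for 7 of the 8 members (8 windows in all). The stretches below run from 140 bases before the start to 30 from the start on, 5′ to 3′ on the minus strand, with the motif matches in capitals.
Zfp36 (chr7:28379199-28379368): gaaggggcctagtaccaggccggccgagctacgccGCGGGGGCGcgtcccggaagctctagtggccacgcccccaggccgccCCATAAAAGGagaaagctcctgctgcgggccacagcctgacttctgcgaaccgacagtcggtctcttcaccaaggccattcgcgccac
Zfp36l1 (chr12:80112984-80113153): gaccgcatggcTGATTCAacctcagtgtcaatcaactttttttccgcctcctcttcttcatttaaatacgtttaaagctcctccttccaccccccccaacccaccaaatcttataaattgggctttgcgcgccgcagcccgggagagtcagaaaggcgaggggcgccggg
The Zfp36 window held an EGR motif (GCGGGGGCG or GCGTGGGCG) and a CArG box, the element bound by serum response factor, whose matches do not overlap. Of all 32851 windows, 3.47% held the EGR motif and 1.63% a CArG box. The Zfp36l1 window held the AP-1 motif TGANTCA, present in 7.81% of windows, and the Hnrnpd window a CArG box at the first transcribed bases. The cyclic AMP element TGACGTCA, the ATF4-type motif TGATGCAA, the kappa-B motif and the interferon-stimulated response element were searched on both strands too, and these letters were in no member's window. They occurred in 1.79%, 0.895%, 0.253% and 3.44% of all windows. The RefSeq start of Zfp36 lies 1025 bases inside the gene span of the deposited table, and it was not tested which start these cells use.

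Zfp36, which encodes tristetraprolin, was the 1 member called lower, and 0 members were called higher. A gene is called when its TMM-scaled CPM differ at least 2-fold and the exact 95% interval of the ratio excludes 1. By that rule 3.64% of all measured genes were called lower and 4.27% higher. These shares are the background for the calls in every gene list of this report. Zfp36 (ENSMUSG00000044786, mm10 chr7:28376784-28380253, minus strand) had 1053 counts with the vector and 292 with IRF8. These equal 60.6 CPM (57.0 to 64.4) and 13.96 CPM (12.4 to 15.7), where the ranges are exact Poisson 95% intervals. Its level was 4.34-fold lower in the IRF8 library (3.81 to 4.96), a log2 ratio of -2.12. Only 75 of the 12468 measured genes (0.602%) had a smaller ratio.

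Zfp36l1 and Zfp36l2, the relatives with the same zinc fingers, stood on the same side at a smaller size, and neither was called. Zfp36l1 (ENSMUSG00000021127, chr12:80107754-80113013) had 3905 counts with the vector and 3084 with IRF8, or 225 CPM (218 to 232) and 147 CPM (142 to 153). The ratio of IRF8 over vector library was 0.656 (0.625 to 0.688). Zfp36l2 (ENSMUSG00000045817, chr17:84183931-84187947) had 2933 and 2471 counts, or 169 CPM (163 to 175) and 118 CPM (114 to 123), a ratio of 0.700 (0.663 to 0.738). For both genes the counting intervals of the levels did not overlap between the libraries. No share of all genes with such a gap is given here. Ratio intervals that excluded 1 were common, below 1 for 32.7% of all measured genes and above 1 for 31.1%. Zfp36l3, a relative known from mouse placenta, was at 0 in either library. A count of 0 allows up to 3 counts, which is 0.173 CPM for the vector and 0.143 CPM for IRF8. Reads of Zfp36l1 may be shared: 61.1% of the 32-base words of its longest transcript occur in another annotated transcript on either strand. Most lie in Gm26669, which spans 4967 bases of the gene on the opposite strand and had 15 and 7 counts, and no source used here gives the strand setting of the counting. Elavl1 likewise shares 204 bases with the chemokine gene Ccl25 on the other strand, which had 231 and 327 counts.

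**Figure D1:**
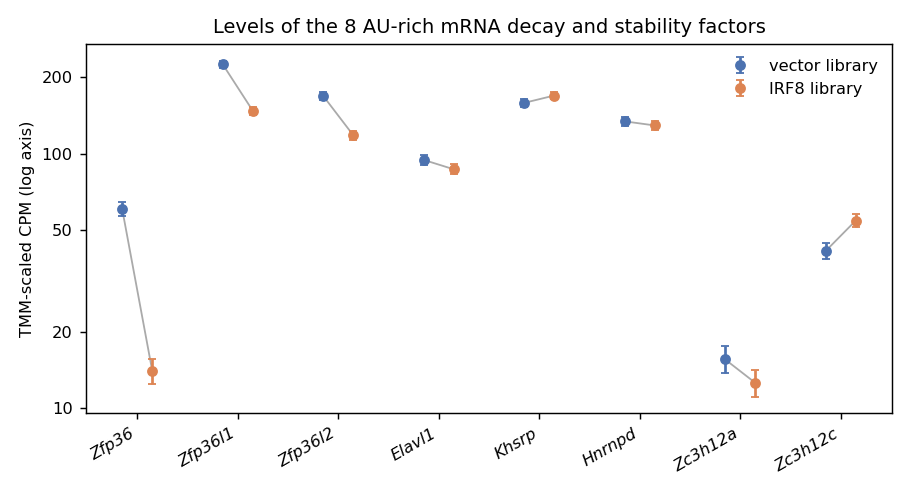
TMM-scaled CPM (log axis) of each member in the vector library (blue) and the IRF8 library (orange), 1 library each, with exact Poisson 95% intervals as bars. Zfp36 drops from 60.6 to 13.96 CPM, while Khsrp, Hnrnpd and Elavl1 stay close to their level in the vector library.

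HuR, KSRP and AUF1 differed little. Elavl1 (ENSMUSG00000040028, chr8:4285382-4325413), the gene of the stabilising protein HuR, had 1643 counts with the vector and 1817 with IRF8, or 94.6 CPM (90.1 to 99.3) and 86.9 CPM (82.9 to 91.0). Its ratio was 0.918 (0.859 to 0.982). Khsrp (ENSMUSG00000007670, chr17:57021058-57031507), whose protein recruits the exosome and a deadenylase to AU-rich mRNAs, had 2753 and 3543 counts, or 159 CPM (153 to 165) and 169 CPM (164 to 175). Its ratio was 1.07 (1.02 to 1.12). The housekeeping genes Gapdh and Actb had ratios of 0.919 and 1.09, and the level intervals of Elavl1 and of Khsrp overlapped between the libraries. Hnrnpd (ENSMUSG00000000568, chr5:99955935-99978938), the gene of AUF1, had 2329 and 2702 counts, or 134 CPM (129 to 140) and 129 CPM (124 to 134). Its ratio of 0.963 (0.911 to 1.02) was the 1 among the 8 members whose interval included 1. With scaling by total counts, which moves the median log2 ratio of all genes from 0.01 to 0.13, the ratios became 1.00 for Elavl1 and 1.05 for Hnrnpd, so no direction can be given for either.

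The Regnase genes lay on opposite sides of 1, and neither was called. Zc3h12a (ENSMUSG00000042677, chr4:125118423-125127840) encodes Regnase-1, which degrades Il6 and other inflammatory mRNAs. It had 270 counts with the vector and 263 with IRF8, or 15.5 CPM (13.7 to 17.5) and 12.6 CPM (11.1 to 14.2), a ratio of 0.809 (0.680 to 0.962). The level intervals overlapped. With scaling by total counts the ratio of Zc3h12a was 0.881, and with the trend on expression level removed 0.756, so its distance from 1 depends on the scaling. Zc3h12c (ENSMUSG00000035164, chr9:52111344-52168572), the gene of Regnase-3, had 720 and 1143 counts, or 41.5 CPM (38.5 to 44.6) and 54.7 CPM (51.5 to 57.9), a ratio of 1.32 (1.20 to 1.45). Its level intervals did not overlap, and it had the highest ratio of the 8 members. A ratio interval wholly above 1 was found for 31.1% of all measured genes. The relatives Zc3h12b (13 counts in each library) and Zc3h12d (0 and 1) were not measured.

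**Figure D2:**
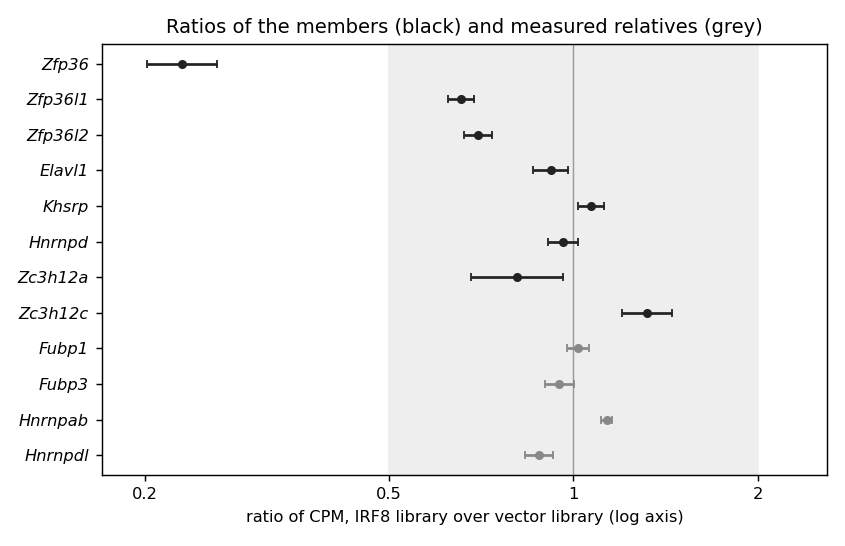
Ratio of CPM, IRF8 library over vector library (log axis), of the 8 members (black) and the 4 measured relatives (grey), with exact 95% counting intervals as bars. The shaded band spans the ratios under 2-fold. Zfp36 at 0.230 is the 1 gene outside it.

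Looser rules called more of the members and more of all genes. At a 1.5-fold threshold Zfp36 and Zfp36l1 were called lower and 0 members higher, where 9.42% of all measured genes were lower and 10.4% higher. An interval that excluded 1, at any fold, was found below 1 for 5 members and above 1 for 2, but this also held for 32.7% and 31.1% of all measured genes. The median log2 ratio over the 8 members was -0.21, against 0.01 over all measured genes. This background depends on level. The median was 0.17 at a mean of 1 to 10 CPM, 0.02 at 10 to 100 and -0.12 over 100. At 10 to 100 CPM 2.13% of genes were called lower and 1.74% higher, and over 100 CPM 2.64% and 0.16%. Zfp36l1, Zfp36l2, Khsrp and Hnrnpd had means over 100 CPM, and the other members lay at 10 to 100.

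**Figure D3:**
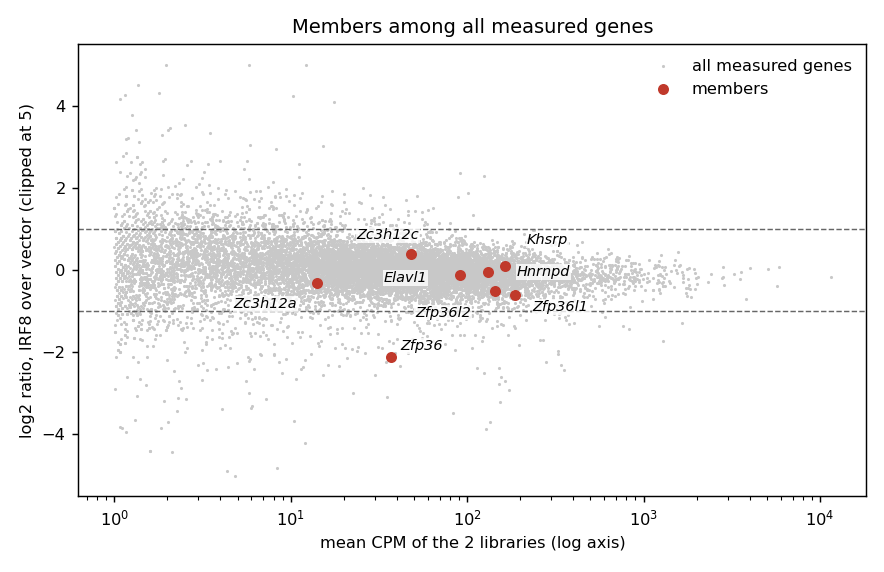
Log2 ratio (IRF8 over vector library) against mean CPM (log axis) for the 12468 measured genes (grey) and the 8 members (red). Dashed lines mark 2-fold. Zfp36 at -2.12 lies below the line, and the other 7 members lie between the lines.

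Comparisons within each library do not depend on scaling. Zfp36 took 13.3% of the counts of the 3 tristetraprolin family genes with the vector (exact 95% interval 12.6 to 14.1) and 4.99% with IRF8 (4.45 to 5.58). Zfp36l1 took 49.5% (48.4 to 50.6) and 52.7% (51.5 to 54.0), and Zfp36l2 37.2% (36.1 to 38.2) and 42.3% (41.0 to 43.5). The Zfp36 to Elavl1 count ratio, a decay factor over a stabiliser, was 0.641 with the vector and 0.161 with IRF8. Counts are not divided by gene length, so this ratio shows a change between libraries and not which gene is higher. Per kilobase, Zfp36 stood above Elavl1 with the vector (17.5 and 9.13) and below it with IRF8 (4.02 and 8.38). The change of Zfp36 relative to each other member ranged from 0.175 against Zc3h12c (0.148 to 0.206) to 0.351 against Zfp36l1 (0.305 to 0.404), and all 7 exact intervals excluded 1. Zfp36l1 and Zfp36l2 changed by amounts that did not differ beyond counting error, with a ratio of their ratios of 0.937 (0.872 to 1.01). Relative to Elavl1, Zfp36l1 stood at 0.714 (0.658 to 0.776) and Zfp36l2 at 0.762 (0.699 to 0.831). Zc3h12c relative to Zc3h12a stood at 1.63 (1.34 to 1.99). Zc3h12c took 72.7% of the counts of this pair with the vector (69.8 to 75.5) and 81.3% with IRF8 (79.2 to 83.3). With counts divided by gene length, its share was 52.9% with the vector and 64.7% with IRF8.

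The order of the members by level per length shifted with Zfp36. On the RPKM scale, CPM per kilobase of the gene length in the deposited table, Zfp36l1 was highest in both libraries, at 75.2 with the vector and 49.3 with IRF8. With the vector it was followed by Zfp36l2 (47.8), Khsrp (39.7), Hnrnpd (18.2), Zfp36 (17.5), Elavl1 (9.13), Zc3h12c (6.06) and Zc3h12a (5.39). The neighbours Hnrnpd and Zfp36, and Zc3h12c and Zc3h12a, had overlapping RPKM intervals there. With IRF8 the RPKM order after Zfp36l1 was Khsrp (42.5), Zfp36l2 (33.5), Hnrnpd (17.6), Elavl1 (8.38), Zc3h12c (7.99), Zc3h12a (4.36) and Zfp36 (4.02). Zfp36 thus moved from rank 5 to rank 8 by RPKM, although the intervals of Zc3h12a and Zfp36 overlapped, as did those of Elavl1 and Zc3h12c. The listed length is 10363 bases for Elavl1 and 2882 for Zc3h12a, so a transcript shorter than the listed length is understated on this scale.

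Relatives of the other members were near 1. Of 10 listed relatives 4 were measured and 0 called. Fubp1 and Fubp3, the KH-domain relatives of KSRP, had ratios of 1.02 (0.976 to 1.06) and 0.949 (0.899 to 1.003). Hnrnpab and Hnrnpdl, the relatives of AUF1, had 1.13 (1.11 to 1.16) and 0.880 (0.835 to 0.928). The neuronal Hu genes Elavl2 and Elavl4 had 0 counts in both libraries, and Elavl3 had 1 count with the vector and 0 with IRF8. HuR was therefore the 1 Hu protein gene with a measured level.

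The machinery to which these proteins deliver mRNAs gave no call. Of 57 listed genes of deadenylation, decapping, the exosome and the Upf and Smg factors, 55 were measured and 0 were called in either direction. Among all measured genes 3.64% were called lower and 4.27% higher. At such shares only a few calls would fall among 55 genes, so the absence of calls says little. Cnot1, the scaffold of the CCR4-NOT complex that tristetraprolin binds, had a ratio of 1.14 (1.09 to 1.19), and its catalytic subunit gene Cnot7 had 1.04 (0.953 to 1.13). Dcp2, the decapping enzyme gene, had 680 counts with the vector and 1240 with IRF8, a ratio of 1.51 (1.38 to 1.67). Xrn1, the 5′ exonuclease gene, had 443 and 962 counts, a ratio of 1.80 (1.61 to 2.02), just under the threshold. On the other side, the exosome subunit gene Exosc4 had 1316 and 835 counts, a ratio of 0.527 (0.483 to 0.575), while Exosc9 had 1.26 (1.13 to 1.40). Upf1, the helicase that Regnase-1 needs, had a ratio of 0.844 (0.807 to 0.883). The median log2 ratios were 0.05 for deadenylases, -0.02 for decapping, -0.08 for the exosome and 0.06 for the Upf and Smg factors, and with scaling by total counts all 4 were above 0.

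The adaptor genes of the Tob and Btg family, whose proteins link RNA-binding proteins to the deadenylase, had 5 of 5 ratios below 1, but only Btg1 was called. Of all 12468 measured genes, 6124 had ratios below 1 and 3.64% were called lower. Btg1 had 3832 counts with the vector and 1869 with IRF8, 2.47-fold lower (2.34 to 2.61). The other ratios were 0.562 for Tob2, 0.626 for Btg3, 0.680 for Btg2 and 0.707 for Tob1, and the median log2 ratio of the list was -0.68. Among 20 other RNA-binding protein genes of mRNA stability, Arid5a was the 1 called. Arid5a encodes a protein that opposes Regnase-1 on the Il6 message, and it was 3.72-fold lower in the IRF8 library (3.14 to 4.42), with 559 counts against 181. Rc3h1, the gene of Roquin-1, had a ratio of 0.926 (0.860 to 0.997), and Tia1, which binds AU-rich mRNAs and restrains their translation, had 1.44 (1.30 to 1.59).

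Of 17 genes whose products act on these proteins, Dusp1 was the 1 called. Dusp1 encodes the phosphatase that switches off the p38 kinase, and it had 6873 counts with the vector and 2565 with IRF8, 3.23-fold lower (3.08 to 3.38). Mapk14, the p38-alpha gene, had a ratio of 1.06 (1.005 to 1.12). Mapkapk2, whose kinase MK2 phosphorylates tristetraprolin and holds it inactive, had 3477 and 3027 counts and a ratio of 0.723 (0.688 to 0.759). Among the 14-3-3 genes, whose proteins bind phosphorylated tristetraprolin, Ywhaz had a ratio of 0.668 and Ywhae 1.27, and neither was called. Malt1, the protease that cleaves Regnase-1, had a ratio of 1.30 (1.19 to 1.42).

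**Figure D4:**
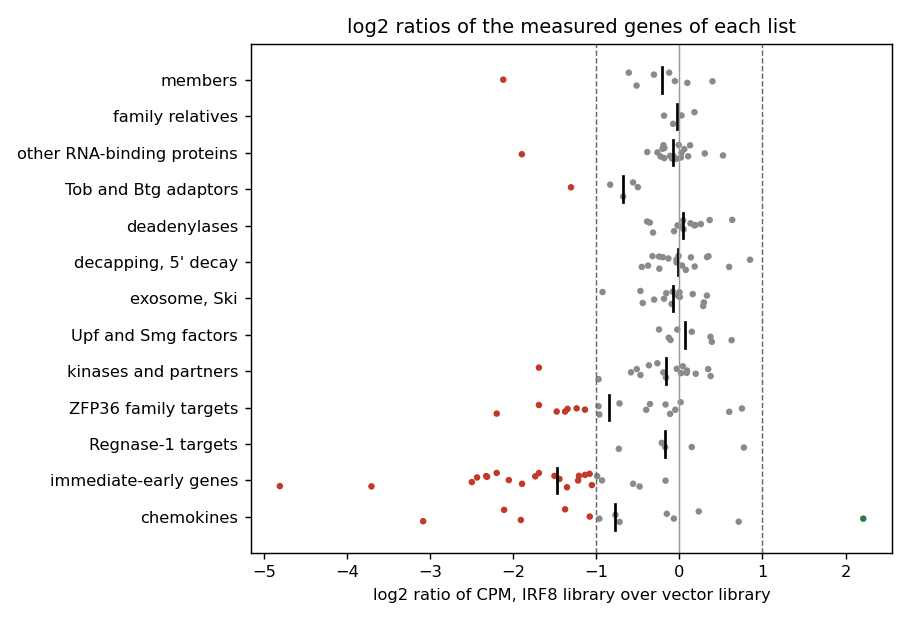
Log2 ratio of CPM (IRF8 over vector library) for the measured genes of the members and of 12 related lists, 1 point per gene, with the list median as a black bar and dashed lines at 2-fold. Red points were called lower and the green point higher. Calls fall mainly among immediate-early genes, tristetraprolin family targets and chemokines, and none among the decay machinery. Among all measured genes 3.64% were called lower and 4.27% higher.

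The mRNAs that these proteins act on were read from lists of targets written from general knowledge. The lists were chosen with earlier results of these data known, so they are not independent of these values. Of 30 listed targets of the tristetraprolin family 18 were measured, with a median log2 ratio of -0.84. Of these, 7 were called lower and 0 higher, against 3.64% and 4.27% of all measured genes. Fos had 343 counts with the vector and 90 with IRF8, 4.59-fold lower (3.63 to 5.85). Csf2, the GM-CSF gene, had 231 and 100 counts, 2.78-fold lower (2.19 to 3.55). Vegfa, the angiogenic growth factor gene, was 2.54-fold lower, the cytokine gene Lif 2.36-fold and Myc 2.20-fold, and Cxcl2 and Dusp1 completed the 7. Fos, Myc and Dusp1 also belong to the immediate-early list, so the lists are not independent. Targets on the other side were Il23a, with 379 and 692 counts and a ratio of 1.52 (1.34 to 1.72), and Bcl2, with 136 and 276 counts and a ratio of 1.69 (1.37 to 2.09), neither called. Ier3, a target that is also an immediate-early gene, had a ratio of 0.891, and Ccnd1 had 1.01. Tnf, the best known target of tristetraprolin, had 0 counts in both libraries, and Il6 had 0 with the vector and 3 with IRF8.

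Of 13 listed Regnase-1 targets 5 were measured and 0 called. Nfkbiz had 1047 and 761 counts, a ratio of 0.604 (0.549 to 0.663), Tfrc, the transferrin receptor gene, had 1.11 (1.07 to 1.15), and Nfkbid had 32 and 66 counts, a ratio of 1.71 (1.11 to 2.70). The median log2 ratio of the list was -0.17.

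Zfp36 lay among the immediate-early genes. Both this list and the chemokine list below were chosen with earlier results of these data known. Of 25 listed immediate-early genes, 24 were measured, with a median log2 ratio of -1.47. Of these, 19 were called lower and 0 higher, against 3.64% and 4.27% of all measured genes. Of those 24, 7 had a ratio smaller than that of Zfp36. Arc, an activity-induced gene best known from neurons, had 279 counts with the vector and 12 with IRF8, 28.0-fold lower (15.8 to 54.8). The stress-induced transcription factor gene Atf3 was 13.04-fold lower (11.8 to 14.5), the phosphatase gene Dusp2 5.64-fold (5.22 to 6.11) and the zinc finger factor gene Egr1 5.40-fold (5.16 to 5.65). Arc has 0 heptamers and Atf3 has 1. Of the 24 chemokines on the list 13 were measured, with a median log2 ratio of -0.77. Of these, 10 had ratios below 1 and 3 above, where 6124 of all 12468 measured genes had ratios below 1. By the 2-fold rule 5 were called lower and 1 higher, against 3.64% and 4.27% of all measured genes. Ccl20, which attracts cells bearing CCR6, had 1098 counts with the vector and 156 with IRF8, 8.48-fold lower (7.16 to 10.1). Ccl9 rose from 36 to 201 counts, a ratio of 4.64 (3.24 to 6.81). Cxcl15 was 3.75-fold lower (2.54 to 5.66) and Cxcl17 4.31-fold (2.24 to 8.99). With a minimum mean of 5 CPM, which neither Cxcl15 nor Cxcl17 reaches, 3 chemokines were called lower, and at a 1.5-fold threshold 8 were. Cxcl2, a neutrophil chemokine gene with the AU-rich stretch shown above, was 2.59-fold lower (2.18 to 3.09), while Cxcl1, with 6 heptamers, had a ratio of 0.513 (0.451 to 0.584) and was not called.

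Heptamers in the 3′ untranslated region were counted over all genes as a description. The median log2 ratio was -0.02 for the 7704 measured genes with 0 heptamers, 0.02 for the 2160 with 1, 0.04 for the 741 with 2 and 0.02 for the 429 with 3 or more. The shares called lower were 3.65%, 3.06%, 2.70% and 5.83%, and the shares called higher 3.21%, 2.96%, 3.91% and 3.03%. The median length of the region rose from 845 bases in the first class to 3293 in the last, so number and length go together. Without the genes of the listed families and targets, the share called lower was 4.63% of 410 genes with 3 or more heptamers and 3.51% of 7610 with 0, a comparison chosen after seeing the data. Among the measured tristetraprolin family targets 16 of 18 held a heptamer, and among immediate-early genes 14 of 24. Of all 11034 measured genes with such a region, 30.2% did. The family binds this heptamer, so a high share among its listed targets is not an independent result.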

How the data were processed

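RNA-seq counts per gene were compared between 1 vector and 1 IRF8 library of Hepa1-6. The deposited values are whole-number read counts per gene, left unnormalized by the authors. The submitters' processing notes list HISAT2 (2.0.5), featureCounts (1.5.0-p3) and mm10. No source used here gives the strand setting or the handling of reads with several matches. Gene lengths are those of the deposited table.

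Totals were scaled with TMM factors (0.958 vector, 1.04 IRF8; edgeR 4.0.16, R 4.3.3). Ratios carry exact Clopper-Pearson 95% intervals and levels exact Poisson intervals; reads without molecular identifiers may be copies, so these cover counting error at best. Relative changes of 14 pairs of members carry exact conditional odds ratio intervals. With 1 library per group edgeR's quasi-likelihood test could not be run. The size rule was checked on simulated counts with counting error only, so that check does not cover the spread between replicate libraries. Steps used Python 3.11.15, scipy 1.17.1, pandas 2.3.3, statsmodels 0.14.6 and DESeq2 1.42.0 (alternative size factors).

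The members and the 12 related lists were chosen with earlier results of these data known. Named genes were the members, their measured relatives, in each list up to 4 called genes by the interval bound farthest from no change, and a fixed set (Dusp1, Mapk14, Mapkapk2, Cnot1, Cnot7, Btg2, Tob1, Dcp2, Xrn1, Exosc9, Upf1, Rc3h1, Arid5a, Tia1, Tnf, Il6, Myc, Fos, Ier3, Nfkbiz, Tfrc, Irf8, Actb, Gapdh). Csf2, Cxcl1, Cxcl2, Il23a, Bcl2, Ccnd1, Nfkbid, Exosc4, Malt1, Ywhaz, Ywhae, Tob2 and Btg3 were picked with their values in view. 3′ untranslated regions came from GENCODE M21 and promoter windows from RefSeq (GRCm38.p6). Protein sequences were not used here. Alternatives were other scalings, filters, fold thresholds and interval levels, removal of the expression trend, CPM + 1, protein-coding genes alone and a nonamer.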

Additional observations from a re-analysis of the deposited data

How the results depend on the processing

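Zfp36 was called lower in the 9 other settings in which genes were called, with ratios from 0.229 (expression trend removed) to 0.251 (total counts). On the CPM + 1 scale its ratio was 0.243. With scaling by total counts the ratios were 0.714 for Zfp36l1, 0.762 for Zfp36l2, 1.00 for Elavl1, 1.16 for Khsrp and 1.05 for Hnrnpd. With the trend on expression removed they were 0.711 for Zfp36l1, 0.75 for Zfp36l2, 1.15 for Khsrp and 1.03 for Hnrnpd. At 1.5-fold, 2 members were lower, since Zfp36l1 at 0.656 then passed, and 1302 genes were higher and 1175 lower. With no filter beyond 1 count 873 genes were higher and 800 lower, and at 5 CPM 221 and 266. Of the calls, 54.0% were higher in the main setting, 66.1% with total counts and 41.6% without the trend. Over the 188 genes of the related lists, 1 was higher in the main setting, 2 with no filter and 9 at 1.5-fold, while 29 were lower in the main setting, 26 with total counts, 30 with no filter and 40 at 1.5-fold. Of 324 values for single lists under alternatives, 296 were classed as close to the main value and 28 as moved. This tally overstates stability, because list medians cannot change with the fold threshold or the interval level. Several lists also had no gene called higher in any setting. The class was wide as well: more tristetraprolin family targets were called lower at 1.5-fold, and that count was classed as close. With the nonamer UUAUUUAUU in place of the heptamer, the medians for 0, 1, 2 and 3 or more were -0.0057, -0.0074, -0.018 and -0.10, the last over 69 genes. That last median had an interval of -0.21 to 0.12 over its genes. The shares called lower in these nonamer classes were 3.49%, 3.42%, 6.11% (8 of 131) and 8.70% (6 of 69). The shares called higher were 3.32%, 2.28%, 0% and 1.45%. The cause of these shifts was not tested. No paired analysis was possible because each group has 1 library. Depth limits Zc3h12a most among the members, with under 300 counts per library.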

Other observations

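The share of genes called lower was also read within 3 classes of 3′ untranslated region length with about equal numbers of genes (up to 671 bases, 672 to 1821, and 1822 or more), a split chosen after seeing the data and given as a description. In the shortest class, 5 of 14 genes with 3 or more heptamers were lower (Gdf15, Ppp1r15a, Nppb, Plk3 and Csf2), a small number, against 4.27% of genes with 1 or 2 and 3.53% of genes with 0. In the middle class, 8 of 73 were lower (11.0%), namely Zfp36, Mmp13, Tnfaip6, Dusp1, Cxcl2, Cldn23, Adamts1 and Slc25a25, against 3.68% with 1 or 2 and 4.18% with 0. In the longest class the share was 3.51% of 342 genes against 2.25% with 1 or 2 and 3.06% with 0.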
